A study of Mus musculus with 2 samples.

Results

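DNA replication genes encode the proteins that load and fire the replicative helicase, copy the DNA, seal the new strands, supply nucleotides and package the copied chromatin. The group described here was chosen by name as a list of 38 such genes. All 38 are among the 13373 genes of the deposited table, and 34 of them had a UMI (a unique molecular identifier, which counts 1 captured transcript) in at least 10% of the cells of a library. The cells came from mouse intestinal organoids, which are epithelial cultures grown from gut tissue, and these organoids were Apc-mutant. Apc is the tumour suppressor that keeps beta-catenin low, so its loss leaves Wnt signalling on. The comparison is between a library of DBZ-treated organoids and a library of DMSO-treated organoids. DBZ inhibits gamma-secretase, the protease needed to activate Notch receptors, and DMSO is the solvent control. Both samples are labelled as C57Bl strain and 3-4 months of age. A protocol text attached to both names 4-hydroxytamoxifen at 300 nM and DBZ at 10 uM, so the titles alone separate the treatments. The labels do not say which Apc allele or Cre driver was used, how long treatment lasted or how many animals or cultures each library holds. Each treatment has a single library, so every difference below is between these libraries, without a replicate check or a p-value.

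Cells license replication origins before S phase, when Cdc6 and Cdt1 help to load the ring-shaped Mcm2 to Mcm7 helicase onto DNA. Cdc45 and the GINS proteins then switch the helicase on, primase and polymerase alpha lay down the first primers, and the replication factor C complex loads the sliding clamp Pcna that holds polymerases on the template. Most of these genes are transcribed under E2F factors when a cell commits to divide, and in the intestinal epithelium they are known mainly from the cycling cells of the crypt.

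The promoters are shown because E2F letters are the shared sequence feature most often tied to this gene group. RefSeq promoter windows on GRCm38.p6, running from 250 bases before to 50 bases after an annotated start, were matched for 31 of the 38 members. Windows for Mcm4, Gins1, Gins2, Tipin, Rfc2, Pole and Prim2 were not used here. The letters TTTCCCGC, searched on both strands, were found in 5 of the 31 members (16.1%), against 2.22% of 9954 other genes of the table. The letters TTTGGCGC were found in 5 of 31 members (16.1%), against 1.11% of the other genes. Either set was present in 9 of 31 members (29.0%), against 3.29% of the other genes. The 9 are Mcm3, Mcm5, Mcm6, Mcm7, Hells, Cdc6, Cdt1, Rfc3 and Pola1. TTTGAA, the letters of the element named CHR that many mitosis genes carry, was found in 3 of 31 members (9.68%) and in 14.1% of the other genes. The stretches below read 5′ to 3′ on the gene's own strand, and capitals mark TTTCCCGC or TTTGGCGC or their reverse complement. Mcm3 and Hells were among the members with the largest negative differences between the libraries, Mcm6 and Mcm5 are further parts of the helicase ring, and Rfc3 had the largest positive difference.
Mcm3: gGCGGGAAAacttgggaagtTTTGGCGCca
Hells: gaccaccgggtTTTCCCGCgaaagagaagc
Mcm6: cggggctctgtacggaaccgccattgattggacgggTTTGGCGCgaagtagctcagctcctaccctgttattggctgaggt
Mcm5: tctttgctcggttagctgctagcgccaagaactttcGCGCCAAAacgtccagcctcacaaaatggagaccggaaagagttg
Rfc3: ctttcgcgctcGCGGGAAAactctactgtc
These lie at chr1:20820265-20820294 on the minus strand for Mcm3, chr19:38930917-38930946 on the plus strand for Hells, and chr1:128359708-128359788 on the minus strand for Mcm6. The Mcm5 stretch is at chr8:75109324-75109404 on the plus strand and the Rfc3 stretch at chr5:151651190-151651219 on the minus strand. The Mcm6 window holds the same letters once more further upstream. The letters of Mcm3 start 20 and 39 bases after the RefSeq start, while those of Rfc3 begin at the start itself. Members with a negative and with a positive difference both hold such letters, and a match in a window is a description of sequence only.

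There were 1241 DBZ cells and 968 DMSO cells in the table. A median cell had 10901 UMIs with DBZ and 11183 with DMSO, over ranges of 5187 to 59745 with DBZ and 5241 to 56915 with DMSO. The epithelial markers Epcam and Krt8 had a UMI in 99.0% and 99.6% of DBZ cells, and in 99.8% and 99.8% of DMSO cells. Hes1, a Notch target, averaged 0.851 per 10000 UMIs with DBZ and 3.34 with DMSO. Secretory markers also differed. The summed Paneth list averaged 276 per 10000 UMIs with DBZ and 63.8 with DMSO, and the enteroendocrine list 21.5 with DBZ and 5.24 with DMSO. Cells above a limit on either list, called secretory-high here, made up 23.9% of cells with DBZ and 6.61% with DMSO. A goblet list, which averaged 21.1 with DBZ and 4.01 with DMSO, is not part of this definition. Cells that are not secretory-high can therefore still be high in goblet genes. 3 cell barcodes occurred in both libraries.

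Most DNA replication transcripts were less abundant in the DBZ library. A level here is the mean over cells of a gene's UMIs per 10000 UMIs of the cell, and a log2 difference is log2 of the DBZ level plus 0.05 over the DMSO level plus 0.05. The 38 members together took up 0.121% of all UMIs with DBZ (19561 UMIs) and 0.173% with DMSO (22574 UMIs). The log2 difference was below 0 for 36 of 38 members, and for 32 of the 34 seen in at least 10% of cells, where 36.8% of all 8797 genes seen that often were below 0. It was at -0.5 or lower for 16 members, against 6.4% of all genes, and at 0.5 or higher for 1 member, Rfc3, against 12.7% of all genes. The median was -0.49 over the 34 members and 0.11 over all genes. The ratio of pooled UMIs had a 95% counting interval, which covers counting error only, below 0 for 34 members and above 0 for Rfc3. It included 0 for Rfc1, Prim2 and Rpa1. The share of all genes with an interval off 0 was not computed. Counts of such intervals, here and below, therefore have no background to set them against. Pooled UMIs weight each cell by its depth, while a level weights all cells equally.

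**Figure D1:**
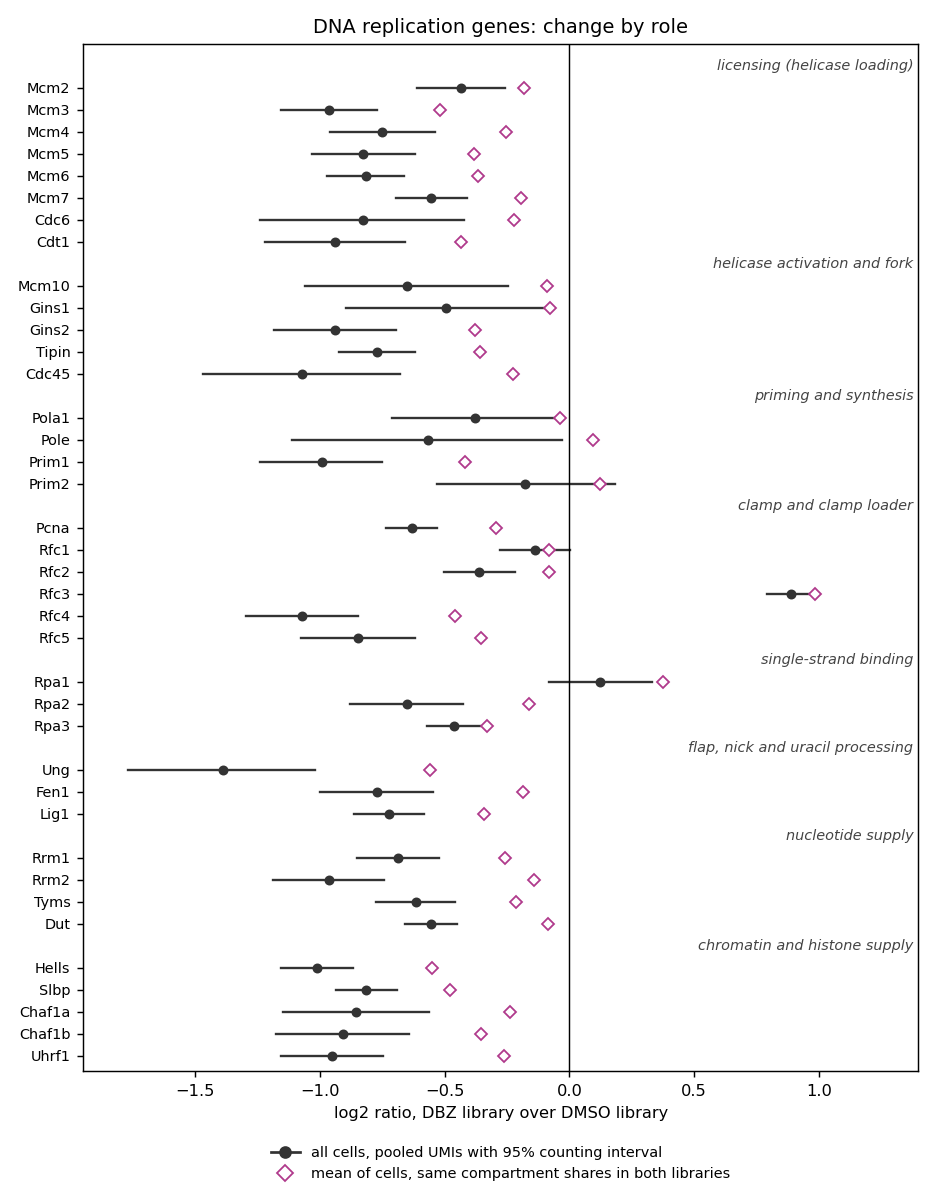
Log2 ratio of the DBZ library over the DMSO library for the 38 members, grouped by role. Filled points are pooled UMIs over all cells with 95% counting intervals, and open diamonds are means over cells after both libraries are given the same shares of dividing cells. All points but those of Rfc3 and Rpa1 lie left of 0 among the filled ones, and most diamonds lie nearer to 0. The diamonds also weight all cells equally and have 0.05 added, so equal shares are not the only change between the symbols. Ung, for example, had -1.39 for pooled UMIs, -0.73 on the level scale and -0.56 after equal shares.

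The licensing genes were lower in the DBZ library as a set. Mcm2 to Mcm7 encode the 6 subunits of the helicase ring, Cdc6 and Cdt1 its loaders, and all 8 genes had a negative difference with a counting interval below 0. Their summed level was 1.61 with DBZ and 2.49 with DMSO (log2 difference -0.63). Mcm3 was furthest down, with 0.181 with DBZ and 0.347 with DMSO (log2 difference -0.79, and -0.97 for pooled UMIs, interval -1.16 to -0.77). A UMI of Mcm3 was present in 15.5% of cells with DBZ (13.5 to 17.6) and 25.7% with DMSO (23.0 to 28.6). Mcm5 followed at 0.156 with DBZ and 0.278 with DMSO (log2 difference -0.67). Mcm6 had 0.308 with DBZ against 0.495 with DMSO (-0.61), and Mcm7, the ring gene with the most UMIs, had 0.404 with DBZ against 0.531 with DMSO (-0.36). The ring genes differed in size of difference. Mcm2, at 0.278 with DBZ and 0.366 with DMSO, had a log2 difference of -0.34, with a pooled interval of -0.61 to -0.26 that does not reach the Mcm3 interval. Exons of Mcm7 contain the microRNA genes Mir25 and Mir93 on the same strand. Cdt1 was at 0.0809 with DBZ and 0.153 with DMSO (-0.63), while Cdc6, seen in 4.92% of cells with DBZ and 8.57% with DMSO, had a difference of -0.44.

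The genes that start and steady the fork shared a direction over all cells but not a size of difference. Gins1 and Gins2 encode GINS subunits, Mcm10 and Cdc45 are needed to fire the helicase, and Tipin protects the moving fork. All 5 had a negative difference, and their summed level was 0.585 with DBZ and 0.916 with DMSO (log2 difference -0.65). Tipin, with the most UMIs of the 5, had 0.333 with DBZ and 0.508 with DMSO (-0.54). Gins2 had 0.113 with DBZ against 0.197 with DMSO (-0.60). Mcm10 and Gins1 did not reach 10% of cells in a library, and their differences were -0.26 and -0.21. Differences of such low genes are pulled towards 0 by the added 0.05. The pooled UMI ratio of Cdc45 was -1.07 (interval -1.47 to -0.68), against -0.48 on the level scale. Depth weighting also enters this gap. Cells high for mitosis genes, defined below, had a median of 18628.5 UMIs with DBZ and 19771 with DMSO. Cells outside division had 10380 with DBZ and 10211 with DMSO. How much each of these adds to the gap was not tested.

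The primase subunits parted from each other. Prim1, the catalytic primase subunit, was at 0.121 with DBZ and 0.218 with DMSO (log2 difference -0.64, pooled -0.99, interval -1.24 to -0.75). Its partner Prim2, the large primase subunit, was at 0.0746 with DBZ and 0.0750 with DMSO, with a difference of -0.0040 and a pooled interval of -0.53 to 0.18. The intervals of these partners do not overlap. Pola1, the catalytic subunit of polymerase alpha, was at 0.0777 with DBZ and 0.0953 with DMSO (-0.19), and Pole, which encodes the catalytic subunit of the leading-strand polymerase epsilon, had 55 UMIs with DBZ and 66 with DMSO.

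The clamp and its loader divided. Pcna, the sliding clamp, was at 0.756 with DBZ and 1.08 with DMSO (log2 difference -0.49, pooled -0.63, interval -0.74 to -0.53). It had a UMI in 45.1% of cells with DBZ (42.3 to 47.9) and 53.7% with DMSO (50.5 to 56.9). The loader subunits Rfc4 and Rfc5 had differences of -0.68 and -0.54. Rfc2 was at 0.469 with DBZ and 0.545 with DMSO (-0.20), and Rfc1, the large subunit, at 0.513 with DBZ and 0.573 with DMSO (-0.15). Rfc3, another small subunit, went the other way, with 2.03 with DBZ and 1.01 with DMSO (log2 difference 0.97, pooled 0.89, interval 0.79 to 0.98). It had 2964 UMIs in the DBZ library, the highest count of any member there, and 1295 in the DMSO library. Because of Rfc3 the summed level of the 6 genes was higher in the DBZ library, at 4.04 against 3.68 in the DMSO library.

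Single-strand binding genes also differed among themselves. Replication protein A coats unwound DNA as a complex of the products of Rpa1, Rpa2 and Rpa3. Rpa3 was at 0.797 with DBZ and 1.07 with DMSO (log2 difference -0.40, pooled interval -0.57 to -0.36), and Rpa2 had a difference of -0.40. Rpa1 was at 0.272 with DBZ and 0.220 with DMSO (0.25, pooled interval -0.082 to 0.33). An exon of Rpa1 overlaps the annotated gene Gm47300 on the same strand.

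The genes that finish and clean the new strand were lower throughout. Fen1 cuts the flaps of lagging-strand fragments, Lig1 seals them, and Ung removes uracil. Ung had 90 UMIs with DBZ and 191 with DMSO, and its level was 0.0493 with DBZ against 0.115 with DMSO (log2 difference -0.73, pooled -1.39, interval -1.77 to -1.02). Lig1 was at 0.397 with DBZ and 0.606 with DMSO (-0.55). Fen1 was at 0.139 with DBZ and 0.201 with DMSO (-0.41).

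Nucleotide supply genes had moderate differences on the level scale. Rrm1 and Rrm2 encode ribonucleotide reductase, Tyms makes thymidylate and Dut keeps uracil out of DNA. Dut was at 0.680 with DBZ and 0.873 with DMSO (log2 difference -0.34), and Tyms at 0.295 with DBZ and 0.426 with DMSO (-0.46). Rrm1 was at 0.270 with DBZ and 0.407 with DMSO (-0.51). Rrm2 was at 0.126 with DBZ and 0.199 with DMSO (-0.49), but its pooled ratio was larger, at -0.97 (interval -1.19 to -0.74). A UMI of Rrm2 was seen in 8.22% of cells with DBZ (6.75 to 9.89) against 15.2% with DMSO (13.0 to 17.6).

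Chromatin and histone supply genes had the lowest summed ratio of the 8 roles, with 1.20 with DBZ and 2.04 with DMSO (log2 difference -0.76). Hells, a chromatin remodeller linked to DNA methylation, was at 0.302 with DBZ and 0.572 with DMSO. Its difference of -0.82 was the most negative of all 38 members on the level scale with 0.05 added (pooled -1.01, interval -1.16 to -0.87). For pooled UMIs Ung (-1.39), Cdc45 (-1.07) and Rfc4 (-1.07) were lower than Hells. It had a UMI in 21.1% of cells with DBZ (18.9 to 23.5) and 33.1% with DMSO (30.1 to 36.1). Slbp, which binds the stem-loop of histone messages, was at 0.564 with DBZ and 0.901 with DMSO (-0.63). Uhrf1, which reads hemimethylated DNA, had a difference of -0.57, and the chromatin assembly factor subunits Chaf1a and Chaf1b had -0.50 and -0.54.

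To ask whether the members differ within or outside dividing cells, cells were divided by genes outside the member list. Cells with a summed level of at least 20 per 10000 UMIs over 40 mitosis genes are called mitosis-high. Of the rest, cells with at least 10 over 26 other S-phase genes are called S-high, and the remainder other cells. These are ranges of a score, not cell types. Mitosis-high cells made up 11.1% of the DBZ library (138 cells, 9.42 to 13.0) and 15.2% of the DMSO library (147 cells, 13.0 to 17.6). S-high cells made up 1.77% (22 cells, 1.11 to 2.67) of the DBZ library and 3.82% (37 cells, 2.71 to 5.23) of the DMSO library. After thinning every cell to 5000 UMIs the mitosis-high shares were 10.8% with DBZ and 16.0% with DMSO, and the S-high shares 2.26% with DBZ and 4.03% with DMSO. The S-phase list holds Gmnn and Tk1, which were among the lowest replication genes in the DBZ library. Without these genes, an alternative chosen after seeing the data, the S-high share was 1.45% of cells with DBZ (0.862 to 2.28) and 2.38% with DMSO (1.51 to 3.54), with overlapping intervals. Among cells that were not secretory-high, the mitosis-high share differed by -2.36 percentage points, against -4.07 over all cells. A mitosis level between 10 and 40 was found in 80 DBZ cells and 62 DMSO cells, so many cells lie near that limit.

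Over all cells the summed level of the members had a log2 ratio of -0.34, and at the limits used here it was closer to 0 within dividing cells. The summed level of the 38 members was 28.2 in DBZ mitosis-high cells and 31.2 in DMSO mitosis-high cells (log2 ratio -0.15). It was 47.8 with DBZ and 49.7 with DMSO in S-high cells (-0.054), and 7.97 with DBZ and 8.93 with DMSO in other cells (-0.16). Dividing cells, mitosis-high and S-high together, are few but rich in these transcripts: mitosis-high cells gave 36.8% of all member UMIs with DBZ and 44.6% with DMSO, and S-high cells 7.43% with DBZ and 15.4% with DMSO. With a mitosis limit of 40 in place of 20 the mitosis-high ratio was -0.30, and with a limit of 10 it was -0.25, so it then lay nearer to that over all cells. Rfc3 moves these sums. Without it, the summed level was 26.7 with DBZ and 30.1 with DMSO in the mitosis-high range, 44.3 with DBZ and 48.2 with DMSO in the S-high range, and 5.90 with DBZ and 7.97 with DMSO in other cells (log2 ratio -0.43, pooled -0.49, interval -0.54 to -0.45).

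**Figure D2:**
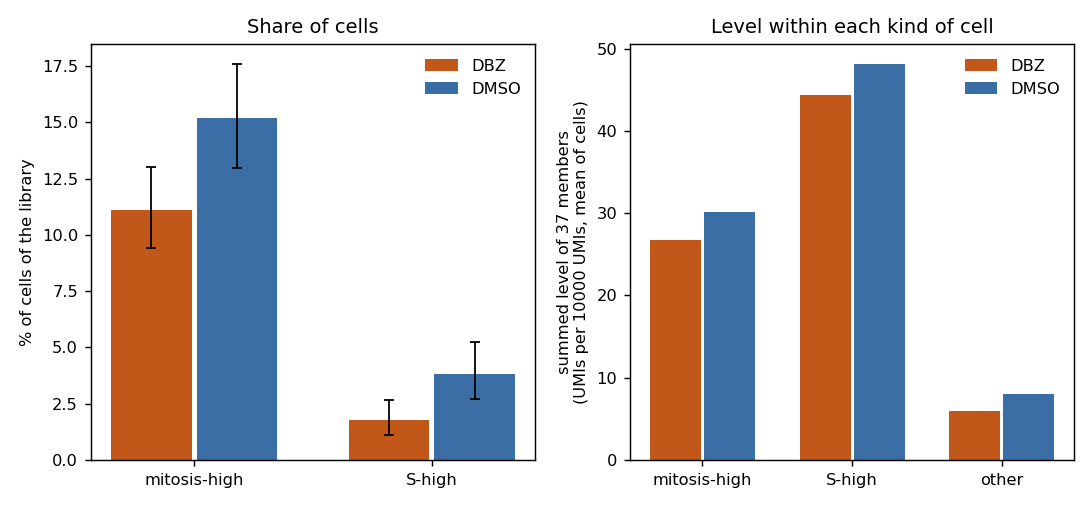
Left, share of cells in each library that were mitosis-high or S-high, with exact 95% binomial intervals. Right, mean summed level of the 37 members other than Rfc3 in mitosis-high, S-high and other cells. The mitosis-high share was 11.1% with DBZ and 15.2% with DMSO, and the right-hand bars differ most, as a ratio, in other cells, with 5.90 for DBZ and 7.97 for DMSO.

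In mitosis-high cells 28 of 38 members had a log2 difference below 0, where 37.9% of all genes seen there did. 2 members, Cdc45 and Fen1, were at -0.5 or lower, against 5.5% of all genes, and Mcm2 and Pole were at 0.5 or higher, against 16.5%. The count at -0.5 or lower was 8 of 37 with a mitosis limit of 40 (7.28% of all genes), 5 of 38 with a limit of 10 (5.5%) and 5 of 34 after thinning (9.38%). Cdc45 was at 0.214 with DBZ and 0.371 with DMSO (-0.67, pooled interval -1.25 to -0.27), and Fen1 at 0.449 with DBZ and 0.689 with DMSO (-0.57, interval -0.97 to -0.32). Prim1 followed at 0.417 with DBZ and 0.598 with DMSO (-0.47). Mcm2 was at 0.698 in DBZ mitosis-high cells and 0.464 in DMSO mitosis-high cells (0.54, interval 0.064 to 0.70). The median over the members was -0.18, against 0.12 over all genes.

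The S-high range rests on 22 DBZ cells and 37 DMSO cells, and there the counting interval included 0 for 34 of 38 members. 26 members were below 0, against 42.4% of all genes. 6 members (Cdt1, Mcm10, Pola1, Pole, Rfc5 and Tipin) were at -0.5 or lower, against 19.1% of all genes, and Cdc6, Rfc3 and Rpa1 were at 0.5 or higher, against 29.3%. The count at -0.5 or lower depended on the setting: it was 16 of 38 with a mitosis limit of 10 (23.2% of all genes), 13 of 37 after thinning (23.1%) and 1 of 38 with an S-phase limit of 5 (12%). Cdt1, with 11 UMIs with DBZ and 61 with DMSO, was the member whose interval was wholly negative (-2.23 to -0.21). Mcm6 was at 3.12 with DBZ and 2.19 with DMSO (0.50, interval 0.18 to 0.96), Rpa1 at 1.27 with DBZ and 0.718 with DMSO (0.78, interval 0.20 to 1.47), and Rfc3 at 3.48 with DBZ and 1.50 with DMSO (1.19, interval 0.89 to 1.72).

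Outside dividing cells the members were lower in the DBZ library again. Among other cells 33 of 38 members were below 0, and 23 of the 25 seen in at least 10% of these cells, against 35.2% of all genes. 8 of the 25 were at -0.5 or lower, against 6.15%: Hells, Slbp, Rfc4 and the ring genes Mcm2 to Mcm6. Only Rfc3 was at 0.5 or higher, against 13% of all genes. Hells was at 0.158 with DBZ and 0.308 with DMSO (-0.78, pooled -1.01, interval -1.25 to -0.78), and Mcm3 at 0.0975 with DBZ and 0.201 with DMSO (-0.77). Pcna was at 0.528 with DBZ and 0.715 with DMSO (-0.40). Fen1 did not follow, with 0.0885 with DBZ and 0.0813 with DMSO (0.077, interval -0.31 to 0.50). The intervals were below 0 for 25 members and above 0 for Rfc3 and Rpa1.

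The result for other cells depended on the limits. With an S-phase limit of 5 in place of 10, S-high cells numbered 48 with DBZ and 79 with DMSO, and the summed level of the remaining cells was 7.42 with DBZ and 7.73 with DMSO. In cells far from both limits, with a mitosis level under 5 and an S-phase level under 2, which left 868 DBZ cells and 554 DMSO cells, the summed level was 6.70 with DBZ and 6.59 with DMSO. Without Rfc3 it was 4.64 in these DBZ cells and 5.62 in these DMSO cells (log2 ratio -0.28, pooled interval -0.34 to -0.22). There 27 of 38 members, however rarely seen, were below 0, against 35.6% of all genes seen in at least 10% of cells. The interval was below 0 for 13 members and above 0 for Rfc3 and Rpa1. Hells was still at 0.0743 with DBZ and 0.153 with DMSO (-0.71), and Slbp at 0.378 with DBZ and 0.538 with DMSO (-0.46). These limits were chosen after seeing the data.

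When both libraries were given the same shares of the 3 ranges (12.9% mitosis-high, 2.67% S-high and 84.4% other), the differences shrank. On this standardised scale 34 of 38 members were below 0, and 31 of the 34 seen in at least 10% of cells, against 35.8% of all genes. 3 members, Hells, Mcm3 and Ung, were at -0.5 or lower, against 5.62% of all genes, and Rfc3 was at 0.5 or higher, against 12.4%. This count of 3 was not stable: it was 0 of 34 with an S-phase limit of 5 (5.49% of all genes) and 9 with a limit of 20 (5.8%), and 7 with a pseudocount of 0.01 (7.16%) and 0 with 0.5 (1.83%). The summed log2 ratio was -0.15, and -0.082 with an S-phase limit of 5. The median was -0.26, against -0.49 without this weighting. Hells went to -0.55, Pcna to -0.29 and Rfc3 to 0.98.

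**Figure D3:**
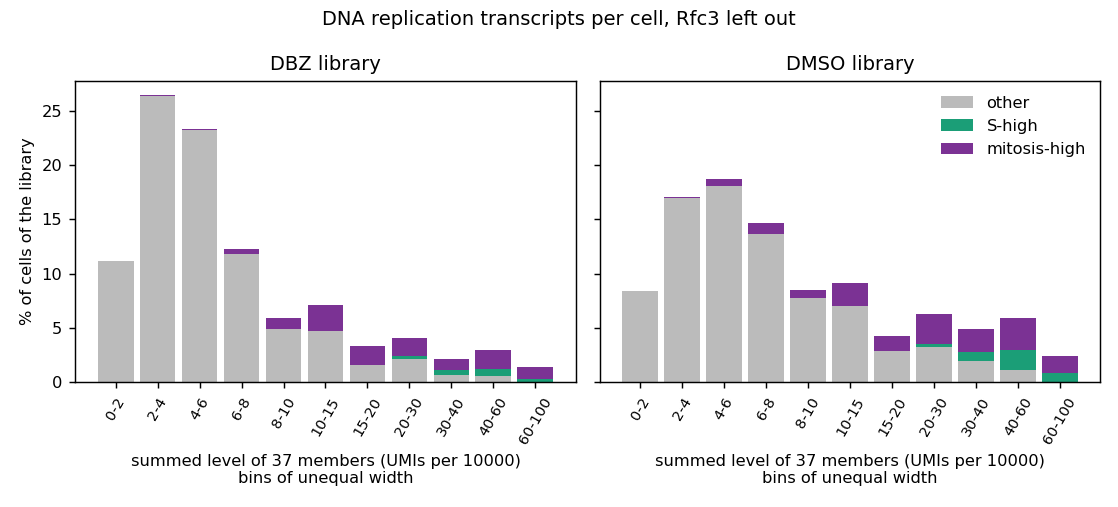
Cells of each library by their summed level of the 37 members other than Rfc3, in UMIs per 10000, coloured by mitosis-high, S-high and other cells. The bins are of unequal width. The median cell had 4.93 with DBZ and 6.65 with DMSO, and the 90th percentile was at 20.4 with DBZ and 35.9 with DMSO.

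Single cells were spread widely, from a few replication transcripts to many. The summed level of the 38 members had a median of 7.07 with DBZ and 7.37 with DMSO, while the 90th percentile was 22.0 with DBZ and 38.0 with DMSO. Without Rfc3 the medians were 4.93 with DBZ and 6.65 with DMSO. After thinning to 5000 UMIs the median cell had 3 different members in each library, and the 90th percentile was 9 with DBZ and 14 with DMSO. A cell with 8 or more members was found in 12.3% of cells with DBZ (10.6 to 14.3) and 20.6% with DMSO (18.1 to 23.2). Without thinning the shares were 30.6% with DBZ and 42.3% with DMSO. Among other cells the thinned shares were 4.72% (3.53 to 6.16) in the DBZ library and 8.67% (6.80 to 10.9) in the DMSO library, so cells with many replication transcripts also occurred below both limits.

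Free RNA can put a UMI into a droplet whose cell does not transcribe a gene. Secretory-high cells outside division, assumed to have mostly left the cycle, were used as a level to compare with. That assumption was not tested. Among S-high cells, 4 of 22 with DBZ and 1 of 37 with DMSO were secretory-high. Pcna had a UMI in 38.1% of 281 such DBZ cells and 29.3% of 58 such DMSO cells, against 40.5% with DBZ and 47.1% with DMSO of the remaining non-dividing cells. Hells had a UMI in 11.0% with DBZ and 13.8% with DMSO of the secretory-high cells, against 14.8% with DBZ and 22.6% with DMSO of the remaining ones. Mcm3 gave 5.34% with DBZ and 5.17% with DMSO, against 10.6% with DBZ and 17.4% with DMSO. Median depths were 10356 UMIs with DBZ and 9136 with DMSO in the secretory-high cells and 10380.5 with DBZ and 10251 with DMSO in the remaining ones. For 10 of 38 members with DBZ (Mcm10, Ung, Tipin, Cdc45, Rfc4, Pola1, Prim1, Dut, Fen1 and Rpa2) and 7 with DMSO the share in secretory-high cells was at least as high as in the remaining cells, so expression outside division is not read from those shares. For Dut it was well above, with 37.4% of secretory-high against 25.4% of remaining cells with DBZ. These members number 14 over both libraries. They include Rfc4, named above among the 8 lower in other cells. Outside division and without secretory-high cells, 34 of 38 members were below 0, and 31 of the 34 seen in at least 10% of cells, against 33.8% of all genes. Rfc3 and Rpa1 were at 0.5 or higher, against 15%. 10 were at -0.5 or lower, against 5.91%. Of these, Prim1, Rfc4 and Ung belong to the 14, while Cdt1, Hells, Slbp, Mcm2, Mcm3, Mcm5 and Mcm6 do not. For some of the latter the shares with DBZ were close. There Slbp had a UMI in 34.2% of secretory-high and 35.3% of remaining cells, and Mcm2 in 17.8% and 19.6%. Mcm6 had 14.6% and 15.5%, and Cdt1 5.34% and 5.50%. With DMSO these were 29.3% and 47.7% for Slbp, 17.2% and 27.1% for Mcm2, 17.2% and 22.7% for Mcm6, and 6.90% and 9.50% for Cdt1. Whether the latter members exceed free RNA was not tested. Over all cells without secretory-high ones, 12 members were at -0.5 or lower, against 5.82% of all genes.

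The order of the members along the cell cycle was similar in both libraries. All 38 had a higher level in S-high than in other cells in each library, and 36 had a higher level in mitosis-high than in other cells in each. Both ranges were picked by further genes of the cell cycle, so higher member levels there are close to given by the choice. The share of all genes with these orders was not computed. Across the 38 members the log2 ratio of S-high over other cells had a Pearson correlation of 0.84 between the libraries, and that of mitosis-high over other cells 0.88. These are correlations across genes, which are no replicates. The ratio of the level in S-high cells to that in other cells was 38.5 with DBZ and 28.0 with DMSO for Rrm2, and 31.1 with DBZ and 30.1 with DMSO for Cdc45. Cdc6 had the highest ratio with DBZ, 43.2, but 12.2 with DMSO. Rfc3 was flattest in both libraries at 1.68 with DBZ and 1.55 with DMSO, followed by Rpa3 and Rfc1. Mitosis-high and S-high cells gave 84.1% of Rrm2 UMIs with DBZ and 90.4% with DMSO, and 15.3% of Rfc3 UMIs with DBZ and 34.2% with DMSO.

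Members also differed in which dividing cells held them. 29 of 38 had a lower level in mitosis-high than in S-high cells in both libraries, a count with no share of all genes beside it. Ung had the lowest ratio (log2 -2.97 with DBZ and -2.91 with DMSO), with 0.0455 in DBZ mitosis-high cells against 0.697 in DBZ S-high cells. The ring genes Mcm3, Mcm5 and Mcm4 came next over the pooled cells, with log2 ratios of -1.63, -1.52 and -1.50. Mcm7, also of the ring, was at -0.69. At the other end Rpa3 had a ratio of 0.30, Rfc5 0.25, and Dut and Pola1 0.14 each. For Rpa3, Rfc5 and Dut the ratio was above 0 in both libraries. For Pola1 it was 0.93 with DBZ and -0.24 with DMSO, and it rests on 4 S-high UMIs with DBZ and 21 with DMSO. Of the mitosis-high cells, 48 of 138 in the DBZ library and 73 of 147 in the DMSO library also reached the S-phase limit, so that range includes cells high for both lists.

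**Figure D4:**
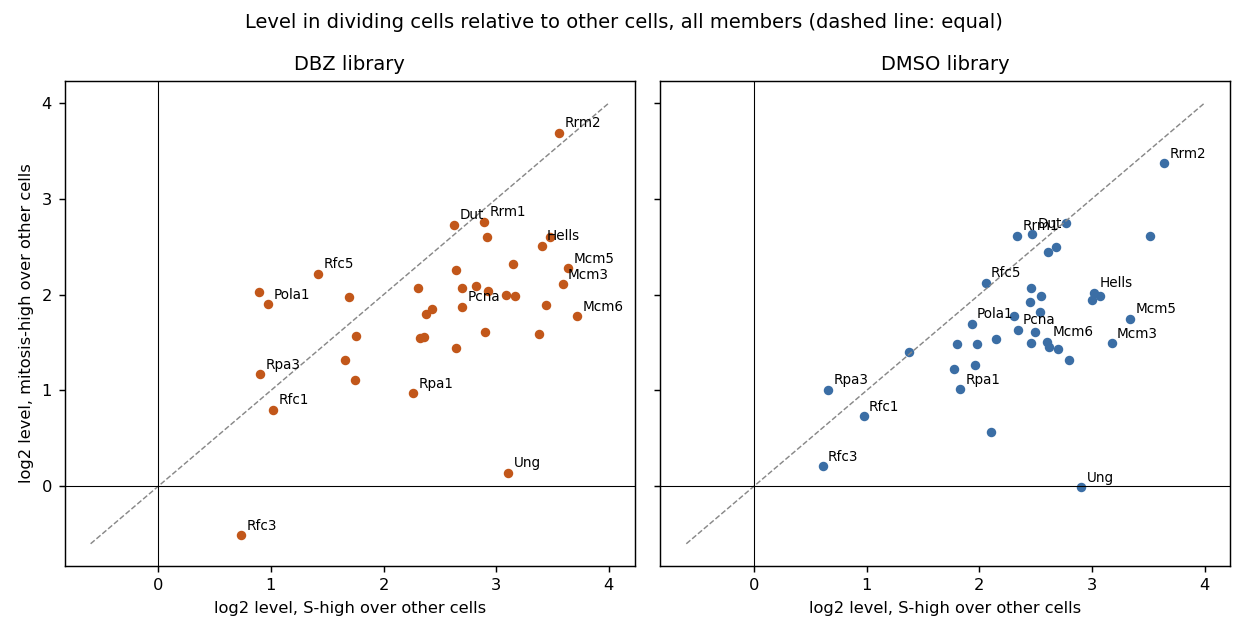
Log2 level of each of the 38 members in S-high over other cells (x axis) and in mitosis-high over other cells (y axis), in the DBZ library (left) and the DMSO library (right). Most points lie below the dashed line of equal ratios. Ung lies far below it and Rfc3 is near the lower left corner in both panels.

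Rfc3 stood apart from its partners. It lies at chr5:151642756-151651242 on the minus strand (GENCODE annotation of GRCm38), with no exon of another annotated gene overlapping its own. Its level was 1.44 with DBZ and 1.12 with DMSO in the mitosis-high range (log2 difference 0.34, pooled interval 0.10 to 0.54), and 2.07 with DBZ and 0.967 with DMSO in other cells (1.06, interval 0.92 to 1.14). In the DBZ library the level was lower in mitosis-high than in other cells, while for Pcna, Hells and Rpa3 it was higher in mitosis-high cells in both libraries. Among non-dividing cells Rfc3 had a UMI in 53.0% of secretory-high DBZ cells and 48.3% of secretory-high DMSO cells, and in 70.4% with DBZ and 50.3% with DMSO of the remaining cells. Over the cells of each library, its correlation with the summed level of the other members was -0.0085 with DBZ and 0.093 with DMSO. Hells, among the higher members, had 0.36 with DBZ and 0.50 with DMSO. The loader partners lay between, with 0.16 with DBZ and 0.15 with DMSO for Rfc1, and 0.20 and 0.32 for Rfc2. Rfc4 had 0.26 with DBZ and 0.30 with DMSO, and Rfc5 0.18 and 0.35. Other members were also weak, such as Pole with 0.087 with DBZ and 0.18 with DMSO. Of 7857 genes ranked by the lower of their Pearson correlations with Rfc3 in the libraries (1241 DBZ cells and 968 DMSO cells), the first was Pycr1, an enzyme of proline synthesis (0.35 with DBZ and 0.24 with DMSO). Of the members 0 were among the first 100, and Slbp came first of them at rank 459. For Hells 21 members were among the first 100, led by Mcm6 at rank 1. Such correlations share library, depth and sparse counts and are given as a description. For Rpa3 11 members were among the first 100. These 3 genes were picked for the ranking after their values were seen.

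**Figure D5:**
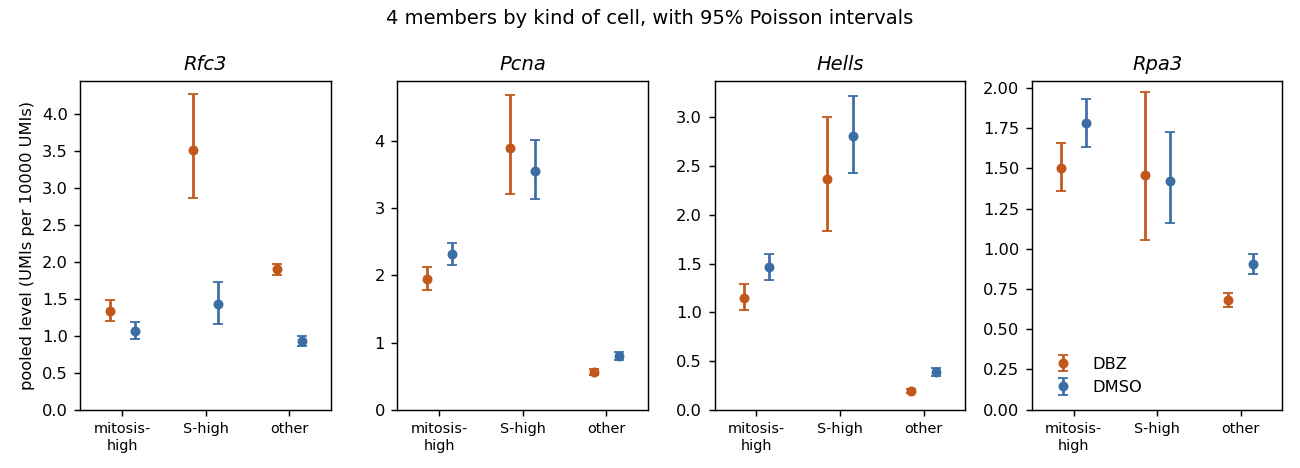
Pooled level (UMIs per 10000 UMIs) of Rfc3, Pcna, Hells and Rpa3 in mitosis-high, S-high and other cells of the DBZ and DMSO libraries, with 95% Poisson intervals. Pcna and Hells are highest in S-high cells and lowest in other cells, whereas Rfc3 in other cells of the DBZ library exceeds its level in mitosis-high cells.

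The remaining members varied together weakly over cells. Over the 666 pairs of the 37 other members the median Pearson correlation was 0.13 with DBZ and 0.17 with DMSO, and 12 pairs exceeded 0.3 in both. Mcm6 with Hells led (0.38 with DBZ and 0.36 with DMSO), and the pairs Mcm3 with Mcm6 and Mcm4 with Mcm5 were among the 12. Dut, with 0.42 with DBZ and 0.52 with DMSO, had the highest correlation with the sum of the other members.

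A second list of replication genes was made of origin recognition, polymerase delta, licensing control and further nucleotide genes. All 52 are in the table and 38 were seen in at least 10% of cells. Of these, 29 were below 0, against 36.8% of all genes, and 6 were at -0.5 or lower, against 6.4%. The median was -0.18, against 0.11 over all genes. The lowest were Tk1, the salvage thymidine kinase, at 0.0728 with DBZ and 0.204 with DMSO (log2 difference -1.05), and Gmnn, which encodes geminin, the inhibitor of Cdt1, at 0.276 with DBZ and 0.587 with DMSO (-0.97). Pold3 and Pold4, accessory subunits of polymerase delta, had -0.60 and -0.57. The highest were Orc5 (0.38), Dck (0.34), Rrm2b (0.21) and Orc3 (0.18). Orc5 and Orc3 encode subunits of the origin recognition complex, Dck a nucleoside salvage kinase and Rrm2b the reductase subunit used outside S phase. For comparison, all 37 mitosis genes seen in at least 10% of cells were below 0, with a median of -0.52, and 13 of 14 S-phase genes of the other list, with a median of -0.39.

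Genes that govern entry into the cycle went in both directions. 29 of 30 were in the table and 20 were seen in at least 10% of cells. 13 were below 0, against 36.8% of all genes, 5 were at -0.5 or lower, against 6.4%, and 1 was at 0.5 or higher, against 12.7%. The median was -0.079, against 0.11 over all genes. Ccnd1, the cyclin that starts the cycle with Cdk4 or Cdk6, was at 0.426 with DBZ and 1.14 with DMSO (log2 difference -1.32), and Myc at 0.614 with DBZ and 1.16 with DMSO (-0.86). Cdkn1a, a Cdk inhibitor, was also lower, at 1.78 with DBZ against 3.12 with DMSO (-0.79), and so was Cdk2 (-0.56). The highest were Rb1, the retinoblastoma repressor of E2F, at 0.170 with DBZ and 0.0986 with DMSO (0.57), and the Cdk inhibitor Cdkn1c at 2.40 with DBZ and 1.73 with DMSO (0.46). Rbl2, a relative of Rb1, had 0.36, and Ccnd3 had 0.28.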

How the data were processed

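The authors deposited natural log values of both libraries in 1 table. Per the submitters' processing notes, Cell Ranger 2.1.1, Seurat and the mm10 build were used; which cell filters they applied is not stated in the labels. In each cell exp(value) - 1 summed to 10000, and all values above 0 were whole UMIs within 0.01. Columns beginning GSI and CTRL were read as DBZ and DMSO from the meaning of those names. UMIs carry no length correction, so levels mix abundance with capture.

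Python 3.11.15, numpy 2.4.6, pandas 2.3.3 and scipy 1.17.1 computed levels, log2 differences (pseudocount 0.05, which understates changes of low genes), exact conditional intervals for pooled UMI ratios, Clopper-Pearson intervals for shares and Poisson intervals for levels, at 95% and for counting error only. Thinning to 5000 UMIs left out 0 cells. Secretory-high means a summed enteroendocrine level of at least 50 or Paneth level of at least 200. No doublets were called; leaving out the 5% of cells with most UMIs stands in as an alternative. Genes described are the 2 highest of each role, the 4 lowest and 4 highest differences (3 within each range) and the 4 at each end of the mitosis-high over S-high ratio; other members named were chosen after their values were seen. Clusters were not rebuilt. Members and lists were chosen with earlier results of these data known. RefSeq promoters were searched for exact letters, and gene positions come from GENCODE M21. Reads on Pcna and Tyms may be shared with annotated pseudogenes, and no source states whether counting used strand. The code was tested on simulated data.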

Additional observations from a re-analysis of the deposited data

Results flagged for a closer look

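Members whose difference had opposite signs in 2 ranges of cells, each with a counting interval off 0, were Mcm6 and Mcm2. For Mcm6 the pooled log2 ratio of the DBZ over the DMSO library was -0.45 in mitosis-high cells and -0.78 in other cells, but 0.57 in S-high cells, where it rests on 90 UMIs from 22 DBZ cells and 151 UMIs from 37 DMSO cells. For Mcm2 it was 0.38 in mitosis-high cells and -0.59 in other cells. The difference between the ranges was not tested, since each library stands alone.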

How the results depend on the processing

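Counts are of members with a log2 difference of -0.5 or lower, and values are log2 ratios of the summed level. Counts with no share of all genes given here or above have no background to set them against. A pseudocount of 0.5 gave counts of 0 in all cells (16 in the main result), 0 in mitosis-high (2), 2 in S-high (6), 0 in other cells (8) and 0 standardised (3); 0.01 gave 4 in mitosis-high cells and 7 standardised. Pooled UMIs gave -0.51 with a count of 26 in all cells (main -0.34), and -0.21 and 5 in mitosis-high (-0.15). No share of all genes stands beside these pooled counts. The pooled values were 0.063 in S-high (-0.054) and -0.26 in other cells (-0.16). Without secretory-high cells the values were -0.27 in all and -0.11 in other cells, and without the 5% of cells with most UMIs -0.30 in all cells. Thinning gave counts of 5 of 34 in mitosis-high, 13 of 37 in S-high and 5 of 15 in other cells. The shares of all genes there were 9.38%, 23.1% and 6.83%. A mitosis limit of 10 gave -0.25 and 5 in mitosis-high, and -0.18 and 16 in S-high. Standardised, it gave -0.20 and 5 of 34, against 5.74% of all genes. A limit of 40 gave -0.30 and 8 in mitosis-high. An S limit of 5 gave a count of 1 in S-high, and -0.059 and 3 of 20 in other cells, against 6.06% of all genes. It gave -0.082 and 0 standardised (main -0.15), and an S-high share difference of -4.29 points (main -2.05). An S limit of 20 leaves 2 S-high cells with DBZ and 4 with DMSO. It gave 0.30 and 12 of 38 in S-high, against 39% of all genes. In other cells it gave -0.28 and 15 of 29, against 6.37%, and standardised -0.23 and 9 of 34, against 5.8%. The S-high share difference was then -0.25 points. Other cells turned to 0.024 with a count of 2 under limits of 5 and 2, and gave -0.23 and 13 with the S list short of Gmnn and Tk1. Without Rfc3 the values were -0.53 in all, -0.43 in other cells and -0.31 standardised. Limits 5 and 2, the shorter S list and the removal of Rfc3 were chosen after seeing the data. The cause of these shifts was not tested. For single members named in the text, 39 alternative values moved by more than their counting interval and 398 did not, and none reversed. No paired analysis was possible because each group has 1 library. The S-high range holds 22 DBZ cells and 37 DMSO cells, which limits its precision.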
